A study of Mus musculus with 24 samples.

Results

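The exon array resolves a gene into probe sets, each of which reads a part of an exon, and 78 probe sets in 41 genes were favoured in skeletal muscle relative to their own gene. They were chosen on the wild-type arrays from 229581 probe sets. For each array, the log2 signal of a probe set was set against the gene-level log2 signal of the same symbol, and this difference is called the exon index. Such an index could be formed for 171647 probe sets of 12844 genes, those with a single symbol that also has a gene-level transcript cluster. A probe set was kept where its mean index was higher in wild-type muscle than in wild-type cerebellum by 2 or more on the log2 scale. Its gene also had to average 7 or more in both wild-type groups, and the probe set itself 7 or more in wild-type muscle. These signal floors were met by 31736 probe sets of 2614 genes.

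RNA came from skeletal muscle and cerebellum of 1-month-old C57BL/6 mice that were either *Usp15*-deficient or wild-type, and was hybridised to 12 Affymetrix exon arrays. The groups were *Usp15*-deficient muscle, wild-type muscle, *Usp15*-deficient cerebellum and wild-type cerebellum, with 3 arrays each. Which part of *Usp15* was deleted and which muscle was taken were not stated by the labels or methods read for this work. Whether each array held RNA of its own animal is likewise unstated, so that the p-values measure only the spread between these arrays, which may be technical. The number of arrays limits the precision. The wild-type arrays chose the members, so that wild-type tissue differences are given as a description only. The *Usp15*-deficient arrays were not used by that rule, and the tests between tissues were made on them alone.

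Many genes give rise to more than one mRNA, through alternative splicing or through a second promoter inside the gene. Skeletal muscle is known for both. Its fibres make muscle forms of cytoskeletal and membrane proteins, among them small ankyrins anchored in the sarcoplasmic reticulum and muscle forms of tropomyosin, and RNA-binding proteins of the muscleblind, CELF and RBFOX families guide many of the exon choices. A probe set that rises more than its gene can mark a part of the gene that muscle transcripts carry more often, whatever the gene as a whole does.

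For 2 genes with such a probe set, the RefSeq annotation of GRCm38.p6 lists several transcription starts, and the 100 bases before each start are shown because a second promoter is one known route to a tissue form. *Pde4a* encodes a cAMP phosphodiesterase and has 3 listed starts, and *Spag9* encodes a scaffold of the JNK pathway and has 2. All windows are on the plus strand, written 5′ to 3′, and capitals mark CG dinucleotides.
Pde4a start 1, chr9:21165614-21165713: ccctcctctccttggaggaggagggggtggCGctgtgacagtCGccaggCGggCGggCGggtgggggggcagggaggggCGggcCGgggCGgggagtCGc
Pde4a start 2, chr9:21184001-21184100: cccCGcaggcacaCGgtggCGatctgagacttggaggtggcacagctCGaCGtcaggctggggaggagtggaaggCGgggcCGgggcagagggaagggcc
Pde4a start 3, chr9:21196605-21196704: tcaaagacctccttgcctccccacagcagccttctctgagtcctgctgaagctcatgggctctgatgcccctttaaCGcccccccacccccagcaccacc
Spag9 start 1, chr11:93995991-93996090: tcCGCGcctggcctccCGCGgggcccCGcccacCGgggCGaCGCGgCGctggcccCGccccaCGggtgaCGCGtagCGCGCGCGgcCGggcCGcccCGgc
Spag9 start 2, chr11:94044030-94044129: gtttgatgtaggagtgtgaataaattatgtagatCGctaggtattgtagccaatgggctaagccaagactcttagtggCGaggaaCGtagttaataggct
The first *Spag9* window held 21 CG dinucleotides and the second held 3, whereas the *Pde4a* windows held 9, 7 and 1. Over 32851 windows of this length the median was 3, and 79.3% held at least 1 CG. The E-box motif CANNTG, which reads the same on both strands, matched in none of the 5 windows and in 34.4% of all windows. A match or its absence is a description of these letters only, and which start the probe sets belong to was not tested. Windows were matched for 31 of the 41 member genes, of which 9 (29.0%) had 2 or more starts, against 464 of 2142 matched genes past the signal floors (21.7%). The member genes had a median of 20 probe sets and 6 RefSeq transcripts, against 13 and 3 for the genes past the floors.

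Gene-level *Usp15* was lower in the *Usp15*-deficient arrays, at 6.73, 6.81 and 6.86 in *Usp15*-deficient muscle against 8.43, 8.92 and 8.65 in wild-type muscle, and at 7.08, 6.99 and 7.19 in *Usp15*-deficient cerebellum against 7.63, 7.51 and 7.66 in wild-type cerebellum. The groups did not overlap in either tissue. The tissue labels matched their markers. The median of 12 muscle fibre genes lay between 12.92 and 13.01 on the muscle arrays and between 5.50 and 5.76 on the cerebellum arrays, and the median of 13 cerebellar neuron genes lay between 4.12 and 5.11 on the muscle arrays and between 10.41 and 10.76 on the cerebellum arrays. The median of 16 genes of other cell types lay between 6.66 and 7.91 on the muscle arrays and between 6.92 and 7.49 on the cerebellum arrays. That median hides differences in both directions. Of the 16, 7 were called higher in *Usp15*-deficient muscle than in *Usp15*-deficient cerebellum, 6 lower and 3 had no call. Among all clusters 12.9% were called higher and 57.0% lower. Examples are *Dcn*, with a difference of 4.27, and *Mobp*, with -4.12. The scale differed between tissues, as exon-level array medians lay between 5.98 and 6.14 in muscle and between 6.55 and 6.64 in cerebellum. The index compares values within 1 array, and its array medians lay between -0.0037 and 0.0097.

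In the *Usp15*-deficient arrays the index of all 78 members was higher in muscle than in cerebellum, in limma with Benjamini-Hochberg adjustment over the 171647 indexed probe sets. Adjusted p-values lay between 0.000133 and 0.0347. The same call was made for 10.4% of all indexed probe sets, and for 6.79% of those past the signal floors. The difference between muscle and cerebellum was 0.92 to 6.43 on the log2 scale, with a median of 2.38, against a median of 0.04 over the probe sets past the floors. In the wild-type arrays, which chose the members, the differences were 2.01 to 6.65 with a median of 2.39. A difference of 2 or more was found again for 60 members in the *Usp15*-deficient arrays, a size reached by 0.205% of the probe sets past the floors, members included, and 18 members reached 3 or more. For all 78 members the 3 *Usp15*-deficient muscle arrays lay above the 3 *Usp15*-deficient cerebellum arrays, which held for 24.3% of the probe sets past the floors. The tissues also differ in their cell types, and in bulk RNA fewer cells of a type and less RNA per cell cannot be told apart.

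**Figure D1:**
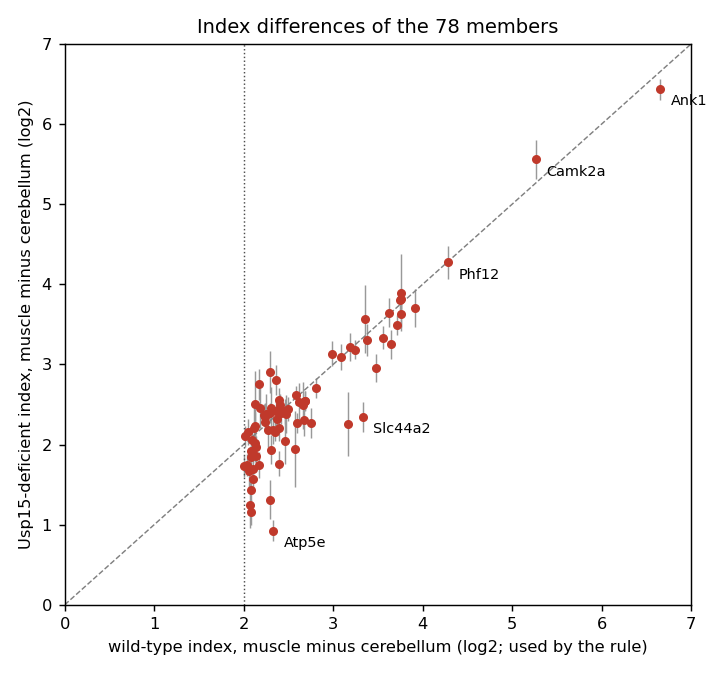
Index difference between muscle and cerebellum (log2) for each of the 78 members, in *Usp15*-deficient arrays (vertical axis, limma estimate with its standard error as a bar, 3 arrays per tissue) against wild-type arrays (horizontal axis, means of 3 arrays per tissue), with equality dashed and the threshold of 2 dotted. An Ank1 and a Camk2a probe set stand highest in both genotypes, and Atp5e, at 0.92 in *Usp15*-deficient arrays, lies farthest below the dashed line.

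The members were unevenly spread over genes. *Camk2a* held 13 and *Ank1* held 9, which together made 22 of the 78. A further 5 genes held 3 or more: *Mrpl30* with 5, *Mtus1* with 4, and *Kif1b*, *Atp5j2* and *Dst* with 3 each. *Dnm1*, *App*, *Sgk1* and *Col1a1* held 2 each, and 30 genes held 1. Probe sets of 1 gene can read the same transcripts and share its gene-level value in their index, so that they are not independent of each other.

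*Ank1* encodes ankyrin 1, which ties the spectrin skeleton to membrane proteins, and a short form of it sits in the sarcoplasmic reticulum of muscle fibres and binds obscurin. Its probe set 4469215 had the highest index difference of all members. The log2 signal was 11.63, 11.49 and 11.65 in *Usp15*-deficient muscle, against 7.50, 7.08 and 7.25 in *Usp15*-deficient cerebellum. In wild-type arrays it was 11.84, 11.97 and 11.65 in muscle and 7.20, 6.77 and 7.54 in cerebellum. Both muscle groups lay far above both cerebellum groups, with no overlap. In the *Usp15*-deficient arrays the signal was higher in muscle by 4.31 (SE 0.19, adjusted p = 3.1e-06).

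The rest of the gene went the other way. Gene-level *Ank1* was 7.52, 7.58 and 7.51 in *Usp15*-deficient muscle and 9.75, 9.58 and 9.65 in *Usp15*-deficient cerebellum, and fell by 2.13 in muscle (SE 0.10, adjusted p = 1.1e-05). The index of 4469215 was therefore 4.11, 3.90 and 4.14 in *Usp15*-deficient muscle and -2.25, -2.50 and -2.40 in *Usp15*-deficient cerebellum, a difference of 6.43 (SE 0.13, adjusted p = 0.000133). Of the 51 *Ank1* probe sets, the 42 outside the members had signal differences between -3.13 and -0.48 with a median of -2.32, and 40 of them were called lower in muscle. The 9 members had signal differences between 0.05 and 4.31, so that all of them lay above all of the others.

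The *Ank1* members fell into several patterns. Probe sets 4557706, 4582145, 5078702, 4818378 and 4553678 were bright in both tissues, with signal means of 11.51 to 11.88 in *Usp15*-deficient muscle and 9.81 to 10.36 in *Usp15*-deficient cerebellum. Their index differences were 3.82, 3.80, 3.65, 3.63 and 3.49. Probe set 5328556 was dimmer, at 9.38, 8.68 and 8.61 in *Usp15*-deficient muscle against 7.41, 7.08 and 7.45 in *Usp15*-deficient cerebellum, and 4842598 stood between, with an index difference of 3.10. The signal of 4610280 was about the same in both tissues, at 10.54, 10.44 and 10.63 in *Usp15*-deficient muscle and 10.88, 10.29 and 10.29 in *Usp15*-deficient cerebellum. These 2 groups overlapped, the signal difference was 0.05 (SE 0.22, adjusted p = 0.863), and the probe set is a member through the lower level of its gene in muscle.

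*Camk2a* encodes the alpha subunit of the calcium and calmodulin-dependent kinase II, a major kinase of neurons. In muscle the gene is also known to give rise to alpha-KAP, a protein without kinase activity that anchors the kinase at the sarcoplasmic reticulum. Its 13 members had signal differences of 1.89 to 5.17, all called higher, while gene-level *Camk2a* was 7.97, 7.84 and 7.76 in *Usp15*-deficient muscle and 7.91, 8.42 and 8.41 in *Usp15*-deficient cerebellum. These gene-level ranges overlapped, with a difference of -0.39 (SE 0.17, adjusted p = 0.0738). Without *Usp15*-deficient cerebellum array 1 this difference was -0.56 and was called (adjusted p = 0.0118). The index differences of the 13 members ran from 2.29 to 5.56 with a median of 2.96. Probe set 4539395 led, at 11.23, 11.28 and 11.12 in *Usp15*-deficient muscle against 5.70, 6.70 and 5.74 in *Usp15*-deficient cerebellum, with 11.52, 11.60 and 11.26 in wild-type muscle against 5.85, 6.61 and 6.03 in wild-type cerebellum. Its index difference was 5.56 (SE 0.25, adjusted p = 0.000241).

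A large block of *Camk2a* moved in the opposite direction. The index of 14 of the 18 other probe sets was called lower in muscle and that of the remaining 4 was called higher, and the median signal difference of the 18 was -3.07. Probe set 5042957 was lowest, at 4.49, 3.27 and 3.54 in *Usp15*-deficient muscle against 9.46, 10.15 and 10.25 in *Usp15*-deficient cerebellum, with an index difference of -5.80 (SE 0.29, adjusted p = 0.000266). The gene thus split into probe sets bright in muscle and probe sets bright in cerebellum, and the gene-level value lay between them. In the *Usp15*-deficient cerebellum arrays the spread was wide for 5216450, with 6.49, 8.74 and 8.78 against 11.61, 11.53 and 11.39 in *Usp15*-deficient muscle. Array 1 stood more than 2 log2 units below the other *Usp15*-deficient cerebellum arrays. Array 1 was also the lowest in wild-type cerebellum, at 6.84, 8.45 and 8.42.

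**Figure D2:**
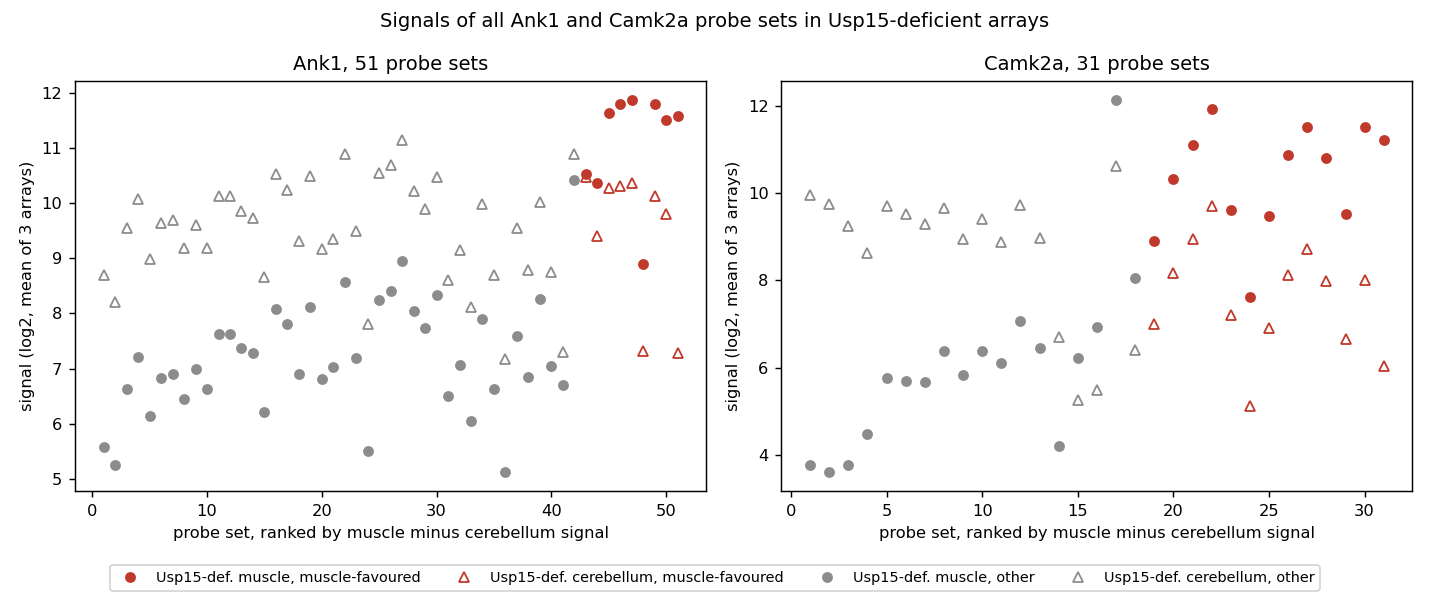
Log2 signal (mean of 3 arrays) of every Ank1 and Camk2a probe set in *Usp15*-deficient muscle (filled circles) and *Usp15*-deficient cerebellum (open triangles), ranked by their difference, with muscle-favoured probe sets in red and others in grey. The 9 red Ank1 probe sets take the highest ranks while the grey ones lie lower in muscle, and in Camk2a the 13 red ones form the upper end with 14 grey ones lower in muscle.

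Several members belonged to genes of the cytoskeleton and of transport along microtubules. *Actn4* encodes alpha-actinin 4, an actin crosslinker, and its probe set 5555012 had a signal of 12.34, 12.38 and 12.44 in *Usp15*-deficient muscle against 8.63, 8.72 and 8.76 in *Usp15*-deficient cerebellum. The groups were far apart, whereas gene-level *Actn4* differed by 0.35 (SE 0.14, adjusted p = 0.0663), a difference of 0.49 that was called without *Usp15*-deficient muscle array 1 (adjusted p = 0.0108). The index difference was 3.33 (SE 0.14, adjusted p = 0.000223), and 20 of the 24 other *Actn4* probe sets had no call. The remaining 4 had an index called higher in muscle, and the highest difference among the 24 was 1.96. In signal, 6 of the 24 were called higher.

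*Kif1b* encodes a kinesin motor that carries mitochondria and synaptic vesicle precursors. Probe set 5125179 had an index of 1.60, 1.09 and 1.58 in *Usp15*-deficient muscle against -1.67, -2.13 and -1.85 in *Usp15*-deficient cerebellum, and the sign of the index changed between the tissues. The differences were 3.31, 2.70 and 2.38 for the members 5125179, 4949995 and 4738866. The gene level fell by 0.64 in muscle (SE 0.10, adjusted p = 0.0015). The opposite probe set 4630160 was at 6.88, 7.43 and 7.36 in *Usp15*-deficient muscle and 9.85, 10.18 and 10.27 in *Usp15*-deficient cerebellum, without overlap, an index difference of -2.23 (SE 0.18, adjusted p = 0.000945).

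*Dst* encodes dystonin, a giant linker of actin, intermediate filaments and microtubules with a known muscle form, and had 120 probe sets, the most of any member gene. Its probe set 5088510 had an index of 0.43, 0.39 and 0.31 in *Usp15*-deficient muscle and -2.03, -2.29 and -1.80 in *Usp15*-deficient cerebellum. The index of the other 117 probe sets was called higher in muscle for 13 and lower for 24, with no call for 80. The highest difference among them was 2.07. The index differences of the 3 *Dst* members were 2.42, 2.34 and 1.75 for 5088510, 4370202 and 4516010. *Mtus1*, which encodes a microtubule-associated protein, had 4 members of similar size, with differences of 2.37, 2.16, 2.02 and 1.85 for 5473544, 5247471, 4584003 and 4786129. The gene level of *Mtus1* differed by 0.29 (SE 0.12, adjusted p = 0.0676), and by 0.37 with a call without *Usp15*-deficient muscle array 1 (adjusted p = 0.0354). After quantile normalization it was 0.47 and was called (adjusted p = 0.00843). Its opposite probe set 4810352 was at 4.45, 4.23 and 4.57 in *Usp15*-deficient muscle and at 7.30, 7.07 and 6.73 in *Usp15*-deficient cerebellum.

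*Tpm1* encodes tropomyosin 1, which lies along the thin filament, and showed the greatest rise in signal of all members. Probe set 4404559 was at 12.83, 12.69 and 12.61 in *Usp15*-deficient muscle against 5.80, 5.24 and 4.89 in *Usp15*-deficient cerebellum, a signal difference of 7.40 (SE 0.26, adjusted p = 1.43e-06). Because the gene itself was higher by 5.46, the index difference was 1.94 (SE 0.18, adjusted p = 0.00153). Another *Tpm1* probe set, 4866752, did not pass the test in signal (0.43, adjusted p = 0.197), at 7.71, 7.55 and 8.40 in *Usp15*-deficient muscle and 7.62, 7.45 and 7.30 in *Usp15*-deficient cerebellum, and its index difference was -5.04 (SE 0.22, adjusted p = 0.000238). Of the 9 *Tpm1* probe sets outside the members, 2 had an index called higher in muscle and 4 one called lower.

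*Twf2*, which encodes the actin-binding protein twinfilin 2, and *Dtna*, which encodes alpha-dystrobrevin of the dystrophin complex, had 1 member each. The *Twf2* probe set 5255081 was at 8.28, 8.04 and 7.69 in *Usp15*-deficient muscle against 4.10, 3.17 and 3.02 in *Usp15*-deficient cerebellum, with an index difference of 2.75 (SE 0.20, adjusted p = 0.000685). The *Twf2* probe set 4306250 had the opposite index difference, -2.99 (SE 0.37, adjusted p = 0.00395). *Dtna* did not differ beyond its spread at the gene level, at 8.87 ± 0.10 in *Usp15*-deficient muscle and 8.86 ± 0.07 in *Usp15*-deficient cerebellum (SD, n = 3 each). Its probe set 4919815 nevertheless had an index difference of 1.96 (SE 0.15, adjusted p = 0.000789). Another kinesin gene, *Kif1c*, and the JNK scaffold gene *Spag9* had index differences of 1.31 for 4966543 and 1.70 for 4705900, and the *Spag9* probe set 5521973 had one of -2.88. The call of *Kif1c* was lost without *Usp15*-deficient cerebellum array 1 (adjusted p = 0.0548) or array 2 (adjusted p = 0.0567). Of the 28 other *Kif1c* probe sets, 9 had an index called higher in muscle and 6 one called lower. The highest index difference among them was 2.16, above that of the member.

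**Figure D3:**
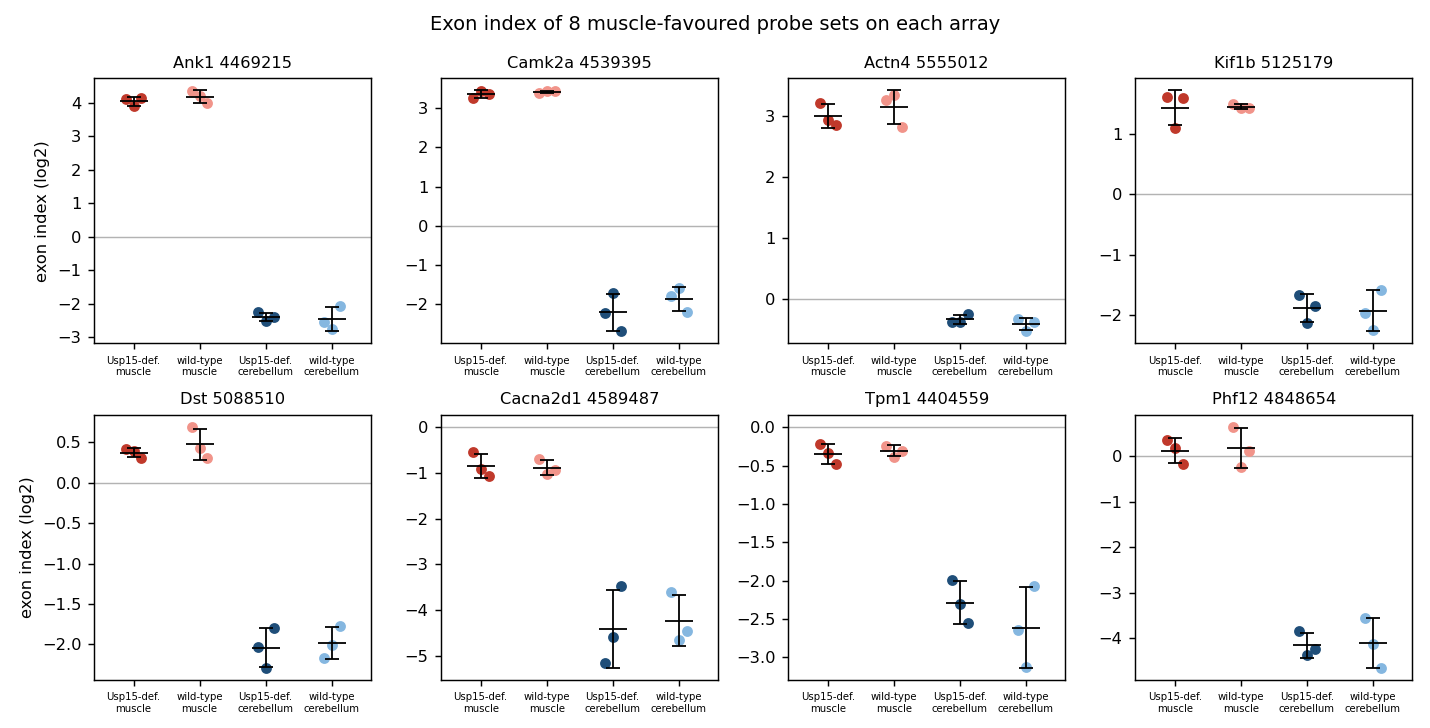
Exon index (log2, probe set minus gene level on the same array) of 8 members on each of the 12 arrays, by group, with the mean and SD of 3 arrays in black. In all 8 panels the muscle groups of both genotypes lie above the cerebellum groups of both genotypes, and the mean indices of Ank1, Camk2a, Actn4, Kif1b, Dst and Phf12 change sign between the tissues.

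*Cacna2d1* encodes the alpha2delta-1 subunit of voltage-gated calcium channels, and its probe set 4589487 was at 9.47, 9.26 and 9.11 in *Usp15*-deficient muscle against 2.44, 3.09 and 4.09 in *Usp15*-deficient cerebellum. The signal difference was 6.07, the gene-level difference 2.51 and the index difference 3.57 (SE 0.43, adjusted p = 0.00345). The cerebellum arrays spread over more than 1 log2 unit but stayed far below muscle. Its probe set 4927882, at 10.63, 10.62 and 10.55 in *Usp15*-deficient muscle and 11.29, 9.98 and 10.50 in *Usp15*-deficient cerebellum, overlapped between the tissues and had an index difference of -2.50 (SE 0.34, adjusted p = 0.00533).

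*Jph2* encodes junctophilin 2, which holds the sarcoplasmic reticulum near the transverse tubules. Its probe set 4928617 was at 9.70, 9.67 and 9.74 in *Usp15*-deficient muscle and 3.71, 4.50 and 3.41 in *Usp15*-deficient cerebellum, with an index difference of 2.51 (SE 0.41, adjusted p = 0.01). The gene-level value of *Jph2* equals that of a single probe set on every array, so that this index compares just 2 probe sets. *Pvalb*, which encodes the calcium buffer parvalbumin of fast fibres and of cerebellar interneurons, was high in both tissues, and its probe set 4986637 had an index difference of 2.06 (SE 0.13, adjusted p = 0.000534). *Rtn2* encodes a reticulon of the endoplasmic reticulum. Its member 4733516 was at 11.35, 11.32 and 11.02 in *Usp15*-deficient muscle and 6.67, 5.87 and 6.04 in *Usp15*-deficient cerebellum, whereas its probe set 5096894 was at 4.82, 5.48 and 4.91 in muscle and 7.97, 7.82 and 7.97 in cerebellum of that genotype. These 2 probe sets of 1 gene moved in opposite directions, with index differences of 2.04 and -5.85.

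The cAMP phosphodiesterase gene *Pde4a*, whose start windows are shown above, had the same split. Its member 4546293 was at 9.48, 9.28 and 9.45 in *Usp15*-deficient muscle against 6.47, 6.92 and 5.96 in *Usp15*-deficient cerebellum, an index difference of 2.46 (SE 0.25, adjusted p = 0.00212). Its probe set 5058108 was at 4.27, 3.85 and 4.42 in *Usp15*-deficient muscle against 7.76, 8.18 and 7.84 in *Usp15*-deficient cerebellum, an index difference of -4.23 (SE 0.17, adjusted p = 0.000216). Neither pair overlapped, and the gene level was higher in muscle by 0.49 (SE 0.11, adjusted p = 0.00623). Of the 23 *Pde4a* probe sets outside the members, 3 had an index called higher in muscle and 4 one called lower. The highest index difference among them was 2.58.

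*Sgk1*, which encodes a kinase regulated by serum and glucocorticoids, had 2 members, 5243907 and 5499205, with index differences of 1.57 and 1.44. It had no gene-level call, with a gene-level difference of -0.12. Of its 21 other probe sets, 13 had an index called higher in muscle and 8 one called lower. Among those called lower, probe set 5463222 was at 4.19, 4.22 and 4.15 in *Usp15*-deficient muscle against 9.62, 9.35 and 9.57 in *Usp15*-deficient cerebellum. *Mapk12*, which encodes p38 gamma, a kinase abundant in muscle, had an index difference of 2.42 for 4794373 with a gene-level difference of 0.11 (SE 0.19, adjusted p = 0.611). The rise was not particular to this probe set. Of the 17 other *Mapk12* probe sets, 11 had an index called higher in muscle and 3 one called lower. Their median difference was 0.96 in the index and 1.07 in signal. *Kcna2* encodes a potassium channel of axons and fell by 1.79 at the gene level in muscle (SE 0.20, adjusted p = 0.000417). Its member 4713914 was at 8.97, 9.03 and 8.60 in *Usp15*-deficient muscle and 8.51, 8.39 and 8.56 in *Usp15*-deficient cerebellum, while its probe set 4311301 was at 6.00, 6.73 and 6.03 in muscle and 10.43, 10.31 and 10.35 in cerebellum of that genotype.

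*App*, which encodes the amyloid precursor protein, fell by 1.22 at the gene level in muscle (SE 0.12, adjusted p = 0.000227). Its 2 members went against the gene. Probe set 4349797 was at 9.49, 9.54 and 9.48 in *Usp15*-deficient muscle and 8.09, 8.34 and 8.40 in *Usp15*-deficient cerebellum, and 4327540 was higher in muscle by 1.17 (SE 0.20, adjusted p = 0.00233). *Slc44a2*, a choline transporter-like gene, rose as a whole by 2.03, and its probe set 5412081 had a signal of 7.47, 7.66 and 7.23 in *Usp15*-deficient muscle and 3.33, 2.72 and 3.18 in *Usp15*-deficient cerebellum.

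In *Mrpl30* and *Atp5j2* most of the gene's probe sets were members. *Mrpl30*, which encodes a protein of the large mitochondrial ribosomal subunit, had 5 members among 7 probe sets. Probe set 4488597 was at 9.93, 10.11 and 10.15 in *Usp15*-deficient muscle against 8.05, 8.35 and 8.08 in *Usp15*-deficient cerebellum, while the gene level was 7.50, 7.64 and 7.68 in *Usp15*-deficient muscle against 8.17, 8.13 and 7.97 in *Usp15*-deficient cerebellum. The probe set was higher in muscle and the gene level was lower, without overlap in either case. After quantile normalization the gene-level difference was -0.26 and had no call (adjusted p = 0.087), beside -0.49 (SE 0.11, adjusted p = 0.00753) as deposited. The index differences of the 5 members were 2.39, 2.32, 2.30, 2.20 and 1.76 for 4488597, 4592367, 4345678, 4571186 and 4467721. Against the median of the other *Mrpl30* probe sets in place of the gene-level value, the difference of 4467721 was -0.51 (adjusted p = 0.145 in limma), below 0 and without a call.

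*Atp5j2*, which encodes a subunit of the membrane part of ATP synthase, had 3 members among 5 probe sets, and its gene-level value equals that of a single probe set on every array. Probe set 5131219 was at 12.01, 12.04 and 12.09 in *Usp15*-deficient muscle against 10.14, 10.63 and 10.52 in *Usp15*-deficient cerebellum. The members' index differences of 2.38, 2.24 and 2.10 for 4968235, 5131219 and 5084227 shrank to 0.43, 0.21 and 0.0098 against the median of the other probe sets, and none was then called (adjusted p between 0.153 and 0.98). *Acot7* encodes an acyl-CoA thioesterase abundant in brain and fell by 2.10 at the gene level in muscle. Its member 5188554 had no call in signal, at 8.20, 7.64 and 7.98 in *Usp15*-deficient muscle and 7.55, 7.60 and 7.29 in *Usp15*-deficient cerebellum, and the signal difference was 0.46 (SE 0.21, adjusted p = 0.107). Of the 15 other *Acot7* probe sets, 8 had an index called higher in muscle and 7 had no call, with a median index difference of 0.85. In signal, 13 of these 15 were called lower.

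In a further group the index rose although the probe set did not. *Dnm1* encodes dynamin 1, which pinches off synaptic vesicles, and was at 6.91, 7.04 and 7.27 in *Usp15*-deficient muscle against 10.70, 10.72 and 10.69 in *Usp15*-deficient cerebellum. Its member 5022840 was also lower in muscle, at 8.96, 8.43 and 8.13 in *Usp15*-deficient muscle against 9.64, 9.63 and 9.67 in *Usp15*-deficient cerebellum, but by far less, with a signal difference of -1.14 (SE 0.24, adjusted p = 0.00596) beside a gene-level one of -3.63. The other *Dnm1* member, 4358132, fell by 1.10. *Ncdn*, which encodes the neuronal protein neurochondrin, had a gene-level difference of -2.81 and a member, 4995401, at 10.95, 11.07 and 11.31 in *Usp15*-deficient muscle and 11.34, 11.49 and 11.45 in *Usp15*-deficient cerebellum. *Hif1a*, which encodes the hypoxia-inducible factor 1 alpha, had a gene-level difference of -1.80 and a member, 5279833, whose signal difference of 0.12 (SE 0.23, adjusted p = 0.682) had no call.

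*Scd2*, which encodes a stearoyl-CoA desaturase, had the member with the widest spread in *Usp15*-deficient muscle. Probe set 4862152 was at 10.68, 13.05 and 11.55 in *Usp15*-deficient muscle, 12.08, 12.23 and 12.48 in wild-type muscle, 11.77, 12.18 and 12.11 in *Usp15*-deficient cerebellum and 11.91, 12.19 and 11.74 in wild-type cerebellum. The *Usp15*-deficient muscle arrays spread over more than 2 log2 units, on both sides of the other groups. The adipocyte gene *Adipoq* was at 5.64, 10.22 and 7.18 in *Usp15*-deficient muscle against 7.49, 8.16 and 8.75 in wild-type muscle. *Plin1*, another adipocyte gene, was at 6.76, 8.77 and 7.17 in *Usp15*-deficient muscle against 7.10, 7.39 and 7.89 in wild-type muscle, and the myelin gene *Pmp22* at 10.12, 11.96 and 11.02 in *Usp15*-deficient muscle against 9.91, 9.93 and 10.46 in wild-type muscle. Array 2 was the highest and array 1 the lowest of the *Usp15*-deficient muscle arrays for all of these, *Scd2* included, and the part of such cells in the *Scd2* values was not tested. The index of 4862152 was higher in *Usp15*-deficient muscle than in *Usp15*-deficient cerebellum by 2.25 (SE 0.40, adjusted p = 0.0127), while gene-level *Scd2* fell by 2.51.

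Over all members, the probe set signal itself was called higher in *Usp15*-deficient muscle for 70 of 78 (13.4% of all probe sets) and lower for 2 (39.1% of all probe sets), both of *Dnm1*. The other 6, of *Ank1*, *Acot7*, *Ncdn*, *Kcna2*, *Hif1a* and *Scd2*, had no call. Signal differences ran from -1.14 to 7.40 with a median of 2.10, where the median over all probe sets was -0.48. The rule asked for a probe set signal of 7 or more in wild-type muscle alone and for a higher index there. That choice favours a higher signal in muscle. The shares and the median beside the members are over all probe sets, and were not worked out for those past the signal floors. The genes behind them divided evenly on the scale as deposited. Of the 41 genes, 16 were called higher in muscle at the gene level (12.9% of all clusters) and 16 lower (57.0% of all clusters), and 9 had no call. The 41 genes had to average 7 or more in both wild-type groups, whereas these shares are over all clusters without that floor. After quantile normalization 17 of the 41 were called higher and 13 lower. Over all clusters the median difference was -0.62 as deposited and 0.02 after quantile normalization, which moved the calls over all clusters to 6007 higher and 5419 lower, against 3013 higher and 13290 lower as deposited. The 19 members in genes that rose had a median signal difference of 4.37, the 34 in genes that fell one of 1.49, and the 25 in genes without a call one of 2.41.

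**Figure D4:**
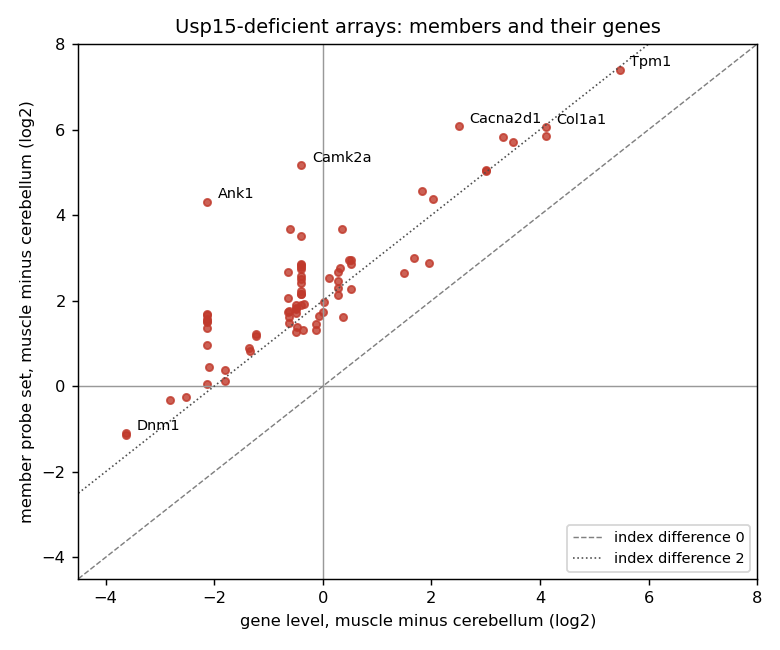
Difference between *Usp15*-deficient muscle and *Usp15*-deficient cerebellum (log2) of each of the 78 members (vertical axis) against that of its gene (horizontal axis), with an index difference of 0 dashed and of 2 dotted. All members lie above the dashed line, and their genes range from Dnm1, at -3.63, to Tpm1, at 5.46.

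Genes that rose as a whole included the collagen I genes, which fibroblasts express. Their members were dim in cerebellum. The *Col1a1* probe set 5560894 was at 11.20, 10.55 and 11.98 in *Usp15*-deficient muscle against 5.51, 6.08 and 3.99 in *Usp15*-deficient cerebellum, with an index difference of 1.94 (SE 0.47, adjusted p = 0.0347). The call was lost when all 12 arrays shared 1 estimate of spread (adjusted p = 0.0692) and when any of the muscle arrays or cerebellum array 1 was left out (adjusted p between 0.0717 and 0.0863). The *Col1a2* probe set 5240503 had an index difference of 2.21. The gene levels of *Col1a1* and *Col1a2*, which also mark fibroblasts, were higher in muscle by 4.11 and 3.50, and the part of fibroblasts in the index was not tested. In all, 12 members had a mean signal in *Usp15*-deficient cerebellum below 5.26, the 25th percentile of those arrays. They belonged to *Phf12*, *Cacna2d1*, *Camk2a*, *Twf2*, *Jph2*, *Slc44a2*, *Col1a1*, *Col1a2*, *Kif1c*, *Cbfb* and *Atp5e*.

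*Phf12*, which encodes a zinc finger protein of the Sin3 corepressor, had 1 member, dim in cerebellum. Probe set 4848654 was at 7.34, 7.19 and 6.85 in *Usp15*-deficient muscle against 3.97, 3.13 and 3.27 in *Usp15*-deficient cerebellum, with an index difference of 4.27 (SE 0.21, adjusted p = 0.000266). The 22 other *Phf12* probe sets had signal differences between -1.21 and -0.0022, and none of them was called higher. The remaining single members had index differences between 1.67 and 2.45. These were *Psmd3* of the proteasome (2.45), *Erc1* of the presynaptic scaffold (2.27), *Ptms* encoding parathymosin (2.27), *Pnkd* (2.16), *Tcf25* (1.86), *Mfsd5* (1.74) and *Stau2* encoding an RNA-binding protein of transport granules (1.67).

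Opposite index differences within a gene were common among the member genes. In 13 of the 41 genes (31.7%) another probe set had an index at least 2 lower in *Usp15*-deficient muscle than in *Usp15*-deficient cerebellum with a call, against 7.19% of the genes past the signal floors. Besides those named above, they were *Col1a1* (-2.80 for 5534073) and *Col1a2* (-2.48 for 4516711). A low index did not always mean a lower signal. The signals of 5534073 and 4516711 were called higher in muscle, by 1.31 and 1.02, but rose less than their genes. Those of *Tpm1* 4866752 and *Cacna2d1* 4927882 had no call. The gene-level value summarises probe sets of the same gene, so that probe sets far above it and probe sets far below it are linked by construction, and the member genes also had more probe sets. The mirrored rule, with cerebellum in the place of muscle, kept 193 probe sets of 93 genes.

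The smallest differences in *Usp15*-deficient arrays were those of *Atp5e*, *Cbfb*, *Derl1*, *Kif1c* and *Sgk1*. *Atp5e* encodes the epsilon subunit of ATP synthase, and its probe set 5169092 was at 7.49, 7.81 and 7.62 in *Usp15*-deficient muscle, 6.97, 7.96 and 7.72 in wild-type muscle, 4.82, 4.69 and 4.81 in *Usp15*-deficient cerebellum and 4.87, 1.86 and 2.53 in wild-type cerebellum. Wild-type cerebellum arrays 2 and 3 stood below 3 while array 1 was like the *Usp15*-deficient ones. Its index difference was 0.92 (SE 0.13, adjusted p = 0.00602) in *Usp15*-deficient arrays beside 2.33 in wild-type arrays, and had no call where all 12 arrays shared 1 estimate of spread (adjusted p = 0.257). *Cbfb*, which encodes the partner of the RUNX factors, had 1.15 (SE 0.16, adjusted p = 0.00526) for 5361080 beside 2.08 in wild-type arrays. Its signal in wild-type cerebellum was 5.47, 2.65 and 4.62, lowest on array 2. With all 12 arrays sharing 1 estimate of spread it had no call (adjusted p = 0.156). Of the 9 other *Cbfb* probe sets, 5 had an index called higher in muscle and 3 one called lower, and the highest difference was 1.78. *Derl1*, which acts in the removal of misfolded proteins from the endoplasmic reticulum, had 1.25 (SE 0.29, adjusted p = 0.0316) for 4897335, and lost its call without *Usp15*-deficient muscle array 1 or 3 or *Usp15*-deficient cerebellum array 2 or 3 (adjusted p between 0.0728 and 0.0985).

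At the threshold of 2 in the wild-type arrays, the members just inside were *Mfsd5* 5608270 at 2.008, *Atp5j2* 5084227 at 2.009 and *Col1a1* 5031825 at 2.04. The probe sets just outside were *Camk2a* 5070234 at 1.998, *Pde4a* 5413610 at 1.992 and *Sgk1* 4621766 at 1.99. In *Usp15*-deficient arrays their differences were 1.74, 2.10 and 1.74 for those inside and 1.90, 2.08 and 1.70 for those outside, and these ranges overlapped.

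Of 61 genes listed as having a known muscle exon or start site, 47 were measured, 28 had a probe set past the signal floors and 5 held a member, *Ank1*, *Dst*, *Dtna*, *Kif1b* and *Tpm1*. Among their 668 probe sets past the floors, the index was called higher in *Usp15*-deficient muscle for 105 and lower for 97, with a median difference of -0.01. Among all probe sets past the floors 6.79% were called higher, with a median of 0.04, and the share called lower was not worked out. Over all indexed probe sets, without the floors, 10.4% were called higher and 9.54% lower. The list genes next below were *Ank3*, a further ankyrin (1.84 for 4644860), *Camk2b*, the beta subunit of the kinase (1.51 for 4407044), and *Atp2a2*, a calcium pump of the sarcoplasmic reticulum (1.48 for 5558758). Of 25 listed sarcomere, Z-disc and actin genes with a probe set past the floors, *Actn4* and *Tpm1* held a member. Of 15 on the list of the membrane skeleton and dystrophin complex, *Ank1*, *Dnm1*, *Dst* and *Dtna* did, although *Dnm1* encodes dynamin 1, a protein of neither. Of 19 of calcium signalling, kinases and phosphatases, *Cacna2d1* and *Camk2a* did, of 17 of microtubules, motors and trafficking *Kif1b*, and of 11 of adhesion and matrix *App*. Of 22 listed genes of glycolysis, glycogen and mitochondria and 22 listed transcription and RNA regulators past the floors, 0 held a member. The lists were not complete, and these counts hold for the listed genes only. Members not counted in them included *Mrpl30*, *Atp5j2* and *Atp5e*, of mitochondria, and *Phf12*, *Hif1a* and *Cbfb*, of transcription. *Kif1c*, *Mtus1*, *Sgk1*, *Mapk12* and *Jph2* were likewise not counted in any of these lists.

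Of 28 listed RNA-binding proteins that guide tissue splicing, 22 were measured at the gene level. In *Usp15*-deficient muscle 6 of them were higher, 10 were lower and 6 had no call, where 12.9% of all clusters were higher and 57.0% lower and the median difference over all clusters was -0.62. Those higher were *Mbnl1* (1.89), *Mbnl2* (0.33), *Fxr1* (2.19), *Rbm38* (2.60), *Ptbp3* (0.85) and *Qk* (0.67), and the sign of *Mbnl2* turned after quantile normalization, to -0.0025. Its call was also lost without *Usp15*-deficient muscle array 3 or *Usp15*-deficient cerebellum array 1 or 2 (adjusted p between 0.0695 and 0.0855). *Mbnl1* was at 10.67, 10.82 and 10.59 in *Usp15*-deficient muscle against 8.74, 8.78 and 8.89 in *Usp15*-deficient cerebellum, without overlap. Those lower were the neuronal *Elavl3* (-4.95), *Elavl4* (-3.99) and *Elavl2* (-3.74), *Rbfox3* (-5.02), *Celf4* (-3.85), *Celf3* (-2.49), *Celf6* (-0.97), *Celf2* (-0.78), *Khdrbs2* (-2.45) and *Ptbp2* (-1.54). After quantile normalization *Celf6* was at -0.23 and had no call (adjusted p = 0.267). Other genes gained a call in limma. *Mbnl3*, at 0.40 as deposited, was at 1.21 after quantile normalization (adjusted p = 0.00291) and at 0.64 without *Usp15*-deficient muscle array 1 (adjusted p = 0.00637). Without *Usp15*-deficient muscle array 3, *Rbfox1* was called higher (0.45, adjusted p = 0.0183) and *Rbfox2* lower (-0.54, adjusted p = 0.007). Only 6 of the 22 genes had a probe set past the signal floors and so could hold a member, and none of these did. Among all genes past the floors, 41 of 2614 held a member. The part of these proteins in the index was not tested.

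Between genotypes, no member passed the test in either tissue. In muscle, the index of *Usp15*-deficient minus wild-type arrays ran from -0.93 to 0.14 with a median of -0.04, 54 members being lower and 24 higher. By limma 0 of 78 were called, against 0.00117% of all indexed probe sets, and 0 had an unadjusted p under 0.05, against 3.77% of all. The largest differences were -0.93 (SE 0.49, adjusted p = 1.0) for *Scd2* 4862152, -0.36 (SE 0.19, adjusted p = 1.0) for *Derl1* 4897335 and -0.27 (SE 0.19, adjusted p = 1.0) for *Ptms* 4564444. For *Scd2* the index was 2.31, 3.92 and 2.74 in *Usp15*-deficient muscle against 3.25, 4.40 and 4.10 in wild-type muscle, and the groups overlapped. The adipocyte and myelin genes that moved with *Scd2* across these arrays are given above with its signals. The rule favoured probe sets that were high in wild-type muscle, which the wild-type arrays of this comparison share.

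In cerebellum, the index of *Usp15*-deficient minus wild-type arrays ran from -0.64 to 1.54 with a median of 0.04, 47 members being higher and 31 lower. By limma 0 were called (0.000583% of all indexed probe sets) and 5 had an unadjusted p under 0.05, which 3.55% of all had. These 5 were 5499205 and 5243907 of *Sgk1*, 5412081 of *Slc44a2*, 4966543 of *Kif1c* and 5598604 of *Camk2a*, all higher in *Usp15*-deficient cerebellum. The largest differences were 1.54 (SE 0.66, adjusted p = 1.0) for *Atp5e* 5169092, 0.96 (SE 0.27, adjusted p = 1.0) for *Slc44a2* 5412081 and 0.91 (SE 0.29, adjusted p = 1.0) for *Kif1c* 4966543. For *Slc44a2* the index was -3.86, -4.30 and -3.87 in *Usp15*-deficient cerebellum against -4.59, -4.80 and -5.53 in wild-type cerebellum, without overlap. How many of all indexed probe sets had genotype groups without overlap was not worked out. The probe sets of *Atp5e*, *Slc44a2* and *Kif1c* are among the 12 members with a mean signal below 5.26 in *Usp15*-deficient cerebellum. Their mean signals in wild-type cerebellum were lower still, at 3.09, 2.05 and 4.06, so that signal over background limits these values. The rule favoured probe sets that were low in wild-type cerebellum, a shift in the same direction as these differences between genotypes.

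**Figure D5:**
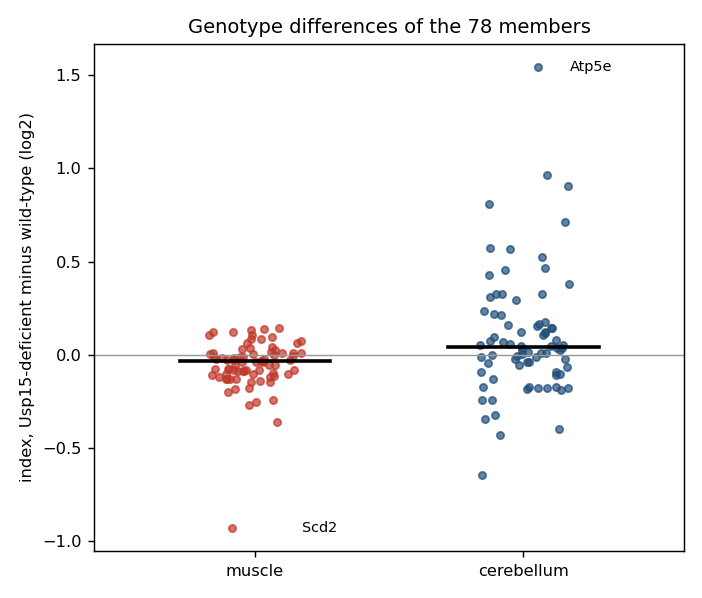
Index of *Usp15*-deficient minus wild-type arrays (log2, 3 arrays per group) for each of the 78 members in muscle and in cerebellum, with the median as a black line. The medians are -0.04 in muscle and 0.04 in cerebellum, and Scd2 in muscle and Atp5e in cerebellum lie farthest from 0.

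The interaction of genotype and tissue, fitted on all 12 arrays, asked whether the tissue difference itself differed between genotypes. By limma 0 of 78 members were called (0.0% of all indexed probe sets) and 4 had an unadjusted p under 0.05, against 3.58% of all. These 4 were *Camk2a* 5598604, *Slc44a2* 5412081, *Kif1c* 4966543 and *Sgk1* 5499205, all with estimates below 0. Estimates ran from -1.41 to 0.62 with a median of -0.10, 50 being below 0 and 28 above. The rule kept high wild-type differences, a choice that favours estimates below 0. For *Ank1* 4469215 it was -0.21 (SE 0.26, adjusted p = 1.0), and for *Camk2a* 4539395 0.29 (SE 0.32, adjusted p = 1.0).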

How the data were processed

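RNA of skeletal muscle and cerebellum was labelled with biotin and hybridised to 12 mouse exon arrays, each deposited at the gene level (23332 transcript clusters) and the exon level (229581 probe sets). The deposited values are log2 signals summarised by the authors. The sources used here do not give their background correction, normalization or software. The values were used as deposited, and no columns of other series were present (0). Probes were named through the platform annotation, in which 14996 clusters and 209279 probe sets had a single symbol. Where a symbol had several clusters, that with the highest mean was used.

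The exon index was tested with limma 3.58.1 in R 4.3.3 (statmod 1.5.0), with group means, eBayes and Benjamini-Hochberg adjustment over all features at 0.05. The tissue contrast used the 6 *Usp15*-deficient arrays, each genotype contrast the 6 arrays of its tissue, and the interaction all 12. The fits were tested on simulated data. Alternatives were shared spread over all 12 arrays, array weights, a replicate block, quantile normalization, a trended and robust prior, a filter on dim features, another reference for the index, other thresholds and each array left out.

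The members and gene lists were chosen with earlier results of these data known. Genes named were the 15 members with the largest index difference in *Usp15*-deficient arrays (at most 2 per gene), genes with 3 or more members, members in genes with a known muscle exon or start site, the 3 probe sets on either side of the threshold and the 5 smallest differences. The 3 largest genotype differences per tissue, the most negative called probe set (-2 or less) of each member gene, splicing regulators that passed the test and *Usp15* were also named. Other members are named to account for all of them, and the list genes next below the members, *Ank3*, *Camk2b* and *Atp2a2*, and the markers set beside *Scd2*, *Adipoq*, *Plin1* and *Pmp22*, were chosen after their values were seen.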

Additional observations from a re-analysis of the deposited data

How the results depend on the processing

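The number of members kept by the rule depended on the threshold and on the floors. It was 176 at an index threshold of 1.5 and 20 at 3, 290 with signal floors of 6 and 26 with floors of 8, and 121 after quantile normalization, which kept 70 of the 78 members. Against the median of the other probe sets of the gene 66 of the 78 stayed at 2 or more. Leaving out single wild-type arrays gave 76 to 86. The 78 calls in *Usp15*-deficient arrays became 76 to 77 with single arrays left out, 75 with all 12 arrays sharing 1 estimate of spread and 74 against the median of the other probe sets. With single arrays left out, 14 to 17 member genes were called higher at the gene level and 14 to 17 lower, 70 members were higher in signal, and 5 to 7 splicing regulators were called higher and 10 to 11 lower. Genotype and interaction calls among the members stayed at 0 in every alternative. Signs turned for *Mrpl30* 4467721 against the other probe sets (-0.51) and for *Mbnl2* after quantile normalization (-0.0025), and the causes were not tested. Groups of 3 arrays were not searched for outlying arrays, and signal over background limits the 12 members dim in cerebellum.

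The labels do not say that a replicate number marks a shared animal, batch or day. Deviations of the index from the group means correlated at 0.0373, -0.0214 and 0.0039 for numbers 1, 2 and 3 between *Usp15*-deficient muscle and cerebellum, at 0.239, 0.0533 and 0.0908 between genotypes in muscle, and at 0.134, 0.138 and 0.0677 between genotypes in cerebellum, so that no comparison of the index had every correlation over 0.1. At the gene level, where genotypes were not tested, all were over 0.1 between genotypes in cerebellum (0.218, 0.203 and 0.103). With the replicate block, 76 of 78 members were called in *Usp15*-deficient arrays, the calls of *Kif1c* 4966543 and *Col1a1* 5560894 being lost (adjusted p = 0.06 each). With it 14 member genes were higher and 14 lower at the gene level, where *Mbnl2* also lost its call (adjusted p = 0.0564), 70 members were higher in signal, and 0 members were called between genotypes.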
